A study of Mus musculus with 36 samples.

Results

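The 35 genes described here encode effectors of the type I interferon response, the antiviral proteins that a cell makes after interferon binds its receptor. They were chosen by name, with earlier results of these data known, and found by symbol among the 37991 genes of the deposited RNA count table. All 35 passed the filter on low counts and were among the 14457 genes tested. The RNA came from the hippocampus of 3-month-old female CK-p25 double-transgenic mice, here CKp25, and of their control littermates, labelled CK. The tissue was taken 2 or 6 weeks after p25 was induced. In the CK-p25 model a transactivator under the Camk2a promoter drives p25, a truncated protein that overactivates the kinase Cdk5, in forebrain neurons, and those neurons are then lost. The labels do not state which transgenes the CK littermates carry. The same age is given at both times. The effect of time since induction cannot be told apart from that of age when the tissue was taken, or from a batch that the libraries of 1 time share. There were 3 libraries in each of the 4 groups, named CK_2wk_4520, CK_2wk_4891 and CK_2wk_4893, CKp25_2wk_4518, CKp25_2wk_4890 and CKp25_2wk_4894, CK_6wk_3936, CK_6wk_3938 and CK_6wk_4009 and CKp25_6wk_3937, CKp25_6wk_3940 and CKp25_6wk_4008. Per-library values below follow this order. Nothing in the labels ties a library to 1 animal, and the p-values rest on library-to-library spread, part of which may be technical. Gene counts lay between 5029996 and 6450140 per library, and levels are CPM, counts scaled to a common library size by trimmed means (TMM). Markers of excitatory neurons summed to 1896 to 4155 CPM in every library, a sum that does not by itself identify the hippocampus.

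Type I interferons signal through the receptor subunits Ifnar1 and Ifnar2 and the kinases Jak1 and Tyk2 to a complex that holds Stat2 and Irf9. That complex binds the interferon-stimulated response element, a pair of GAAA repeats a short distance apart in the promoters of its target genes. The products bind foreign RNA, degrade it, trap budding virus, modify host proteins or alter the nucleotide pool, and several of them feed back on the pathway. In the brain microglia respond strongly to interferon, and neurons, astrocytes and endothelium can respond too.

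The promoters are shown because the response element is what the members' regulation is known for. The element was searched as GAAANNGAAA, or TTTCNNTTTC on the other strand, in RefSeq windows of 300 bases (250 before and 50 after the start, GRCm38.p6). Of the 35 genes, 27 had a window and 13 of these (48.1%) held at least 1 match. Of all 27025 genes with a window, 1079 (3.99%) held one. The stretches below lie before the start, read 5′ to 3′ in the direction of the gene, with the matches in capitals. They were picked after the members' values were seen. Slfn5, Slfn8 and Trim30a, which also held 1 match before the start, are not shown.
Isg15 (chr4:156200850-156200921, minus strand): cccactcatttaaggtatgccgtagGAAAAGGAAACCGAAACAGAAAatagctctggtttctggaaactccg
Oas1a (chr5:120907526-120907570, minus strand): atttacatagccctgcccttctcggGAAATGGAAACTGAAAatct
Oas3 (chr5:120777700-120777759, minus strand): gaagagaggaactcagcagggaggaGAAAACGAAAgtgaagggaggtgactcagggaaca
Bst2 (chr8:71537562-71537627, minus strand): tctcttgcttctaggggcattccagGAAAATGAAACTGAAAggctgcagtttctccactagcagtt
Ifit1 (chr19:34640760-34640838, plus strand): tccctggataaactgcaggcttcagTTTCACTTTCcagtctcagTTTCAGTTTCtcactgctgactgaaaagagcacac
Ifit3 (chr19:34583348-34583441, plus strand): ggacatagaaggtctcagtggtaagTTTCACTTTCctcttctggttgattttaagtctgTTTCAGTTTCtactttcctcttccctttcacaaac
Rsad2 (chr12:26456538-26456597, minus strand): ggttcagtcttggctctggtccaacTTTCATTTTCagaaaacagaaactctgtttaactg
Ifi206 (chr1:173491324-173491383, minus strand): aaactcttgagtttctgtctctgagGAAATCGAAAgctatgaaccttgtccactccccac

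In Isg15, Oas1a and Bst2 neighbouring matches overlap and share a GAAA, so that Isg15 holds 3 matches in 1 run. In Ifit1 and Ifit3 the 2 matches are separate and lie on the other strand. The matches of Ifitm3 and Trim21 lay after the start. The 14 members with a window and no match (Cmpk2, Dtx3l, Herc6, Ifi35, Ifi44, Ifit2, Lgals3bp, Oasl1, Oasl2, Parp12, Samd9l, Slfn2, Sp100 and Xaf1) had a median log2 fold change between genotypes of 3.22 at 2 weeks. The 13 with a match had 5.06, and the 8 with no window (Ifi27l2a, Mx1, Mx2, Oas2, Parp14, Parp9, Rtp4 and Usp18) 5.26. At 6 weeks these medians were 2.44, 3.92 and 4.14. Members with a lower mean level in CK tended to have a higher log2 fold change at 2 weeks, with a Spearman rho of -0.84. Whether the medians differed by match apart from the level in CK was not tested. The ranges with and without a match overlapped widely at 2 weeks, at 2.13 to 6.27 and 1.30 to 5.69, where 6.27 is the fitted value of Oas3 on 1 CK count. With a spacing of 3 bases, 6 of the 27 members (22.2%) and 3.17% of all genes held a match. The 6 members included Ifi44, Lgals3bp, Samd9l and Sp100, which had none at the spacing of 2. A match is a run of letters, not a measured binding site.

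The first comparison asked how CKp25 hippocampus differed from CK 2 weeks after induction, and the second asked the same at 6 weeks. All 35 genes were higher in CKp25 at both times by edgeR's quasi-likelihood test. The list was drawn up with earlier results of these data known, so this count is not that of an independent list. At 2 weeks, 11.6% of the 14457 genes tested were higher, and the adjusted p of the members ran from 2.76e-10 to 2.1e-05. At 6 weeks, 18.1% were higher, with members at 7.67e-10 to 0.000108. The median log2 fold change of the 35 genes was 4.39 at 2 weeks and 3.87 at 6 weeks, against -0.01 and 0.00 over all genes tested. Members with more than 3 counts over the CK libraries ran from 1.30 to 6.33 at 2 weeks (32 genes) and from 1.39 to 5.13 at 6 weeks (30 genes). Members near 0 in CK, such as Oas3 and Ifi206, could pass the filter only through their CKp25 libraries, and all 35 were also called at both times with no filter. At both times the lowest CKp25 library lay above the highest CK library for all 35 genes, which held for 18.4% of all genes tested at 2 weeks and 23.6% at 6 weeks. At 2 weeks 34 of the 35 genes were past a fitted log2 fold change of 2, 27 past 3, 19 past 4 and 15 past 5. Of these 15, Oas3 and Ifi206 had 1 CK count each and Oas1a had 3. At 6 weeks the numbers of genes past these values were 32, 21, 15 and 4. Oas3 and Ifi206, which had 0 CK counts there, were taken at the lowest fold that a floor of 3 counts allows. The fitted values put Oas3 and Ifi206 past 5 as well, but depend on the prior count. The 4 included Mx1 and Ifi27l2a, on 2 CK counts each, and Oas1a, on 5. The counting intervals given below for Oas3, Ifi206 and Oas1a at 2 weeks, and for Mx1 and Ifi27l2a at 6 weeks, reach under a log2 of 5. The order of the genes by fold change was close at the 2 times, with a Spearman rho of 0.93 over the 29 members that had more than 3 CK counts at both times. The genes share all libraries and are not independent.

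**Figure D1:**
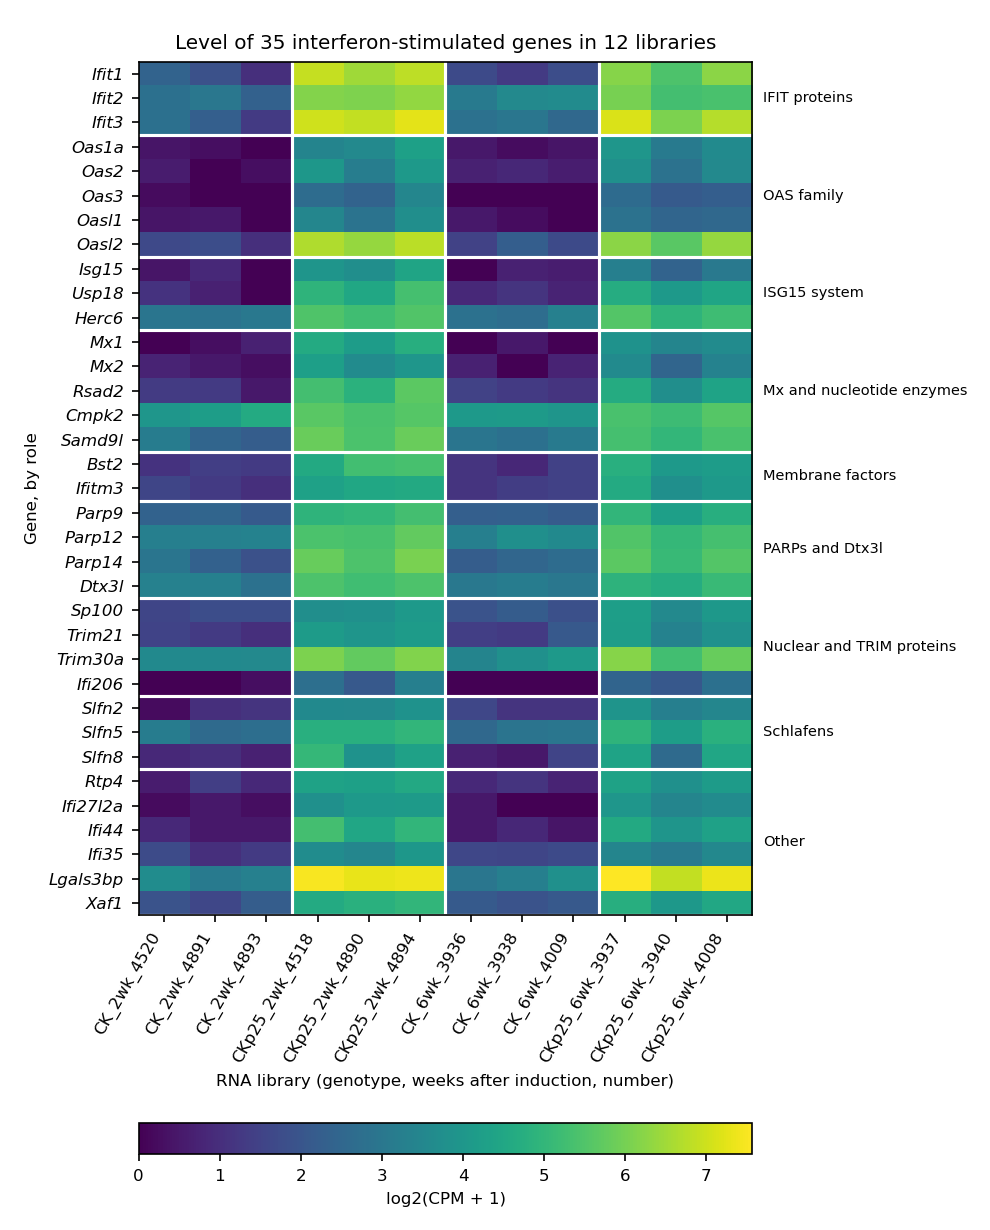
Level of each gene (rows, grouped by role) in each of the 12 libraries (columns), as log2(CPM + 1) on the colour scale. In every row the 6 CKp25 columns are brighter than the 6 CK columns, and within CKp25 at 6 weeks library CKp25_6wk_3940 is the dimmest in all 35 rows.

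**Figure D2:**
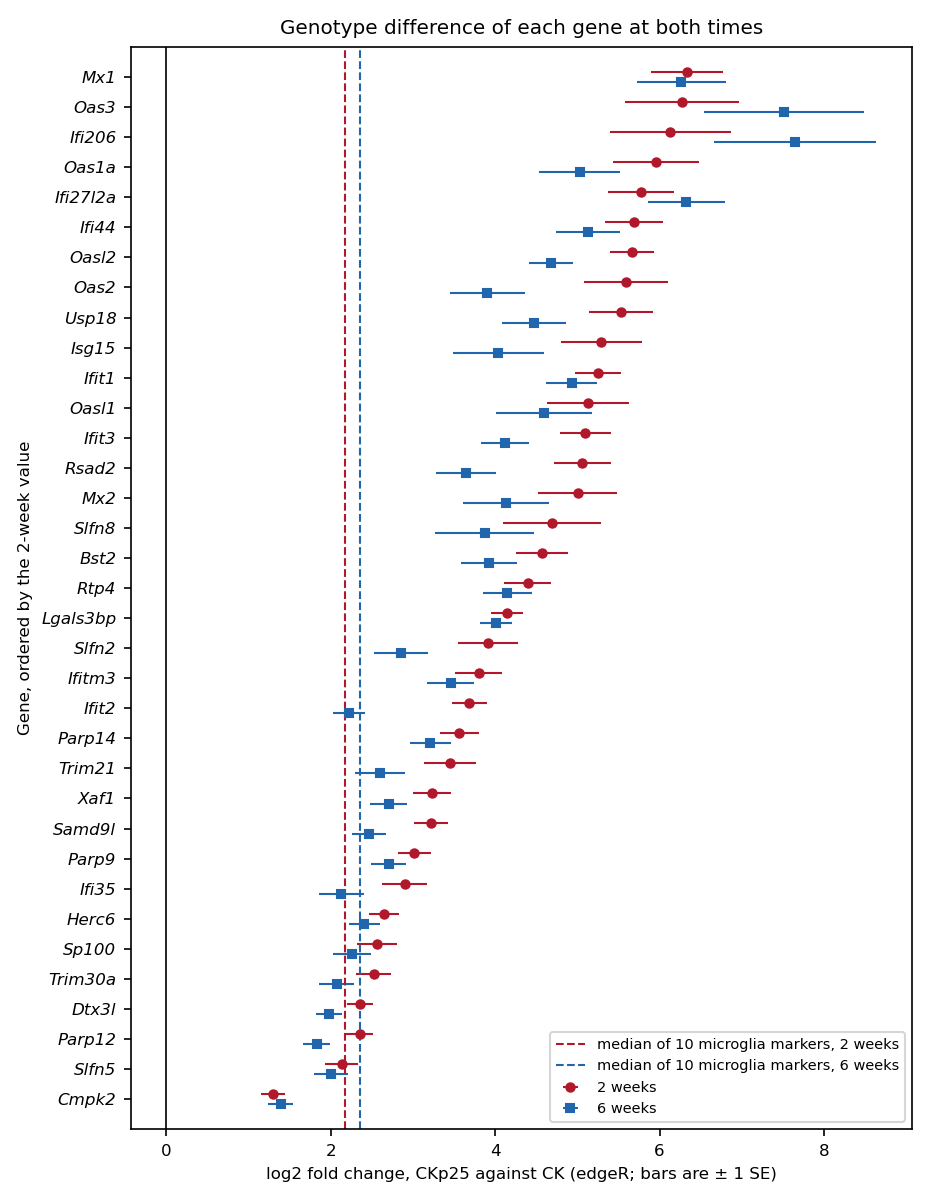
log2 fold change of CKp25 against CK for each gene at 2 weeks (circles) and 6 weeks (squares), with bars of 1 SE; dashed lines mark the median of 10 microglia markers, 2.17 and 2.36. Cmpk2 is the lowest at both times, and the widest bars belong to Oas3 and Ifi206, which were near 0 in CK and whose fitted 6-week values, over 0 CK counts, depend on the prior count.

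These are bulk tissue libraries, so more cells of a type and more RNA per cell cannot be told apart. Microglia markers were also higher: 10 of 10 were called at each time, with a median log2 fold change of 2.17 at 2 weeks and 2.36 at 6 weeks, and with maxima of 3.00 and 3.50. Of the 35 genes, 33 lay above the median microglia marker at 2 weeks and 27 at 6 weeks. Above the highest microglia marker were 27 at 2 weeks and 19 at 6 weeks. Whether the members' level followed the number of microglia was not tested.

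Ifit1, Ifit2 and Ifit3 encode proteins that bind RNA lacking the host's marks and hold back its translation. Ifit3 (ENSMUSG00000074896), which had the most counts of the 3, stood at 5.87, 3.89 and 1.42 CPM in CK and at 128, 115 and 153 CPM in CKp25 at 2 weeks. At 6 weeks it stood at 6.10, 6.88 and 4.89 CPM in CK and at 141, 65.9 and 105 CPM in CKp25. Its log2 fold changes were 5.10 ± 0.31 (SE) and 4.12 ± 0.30. The CKp25 libraries of the 2 times overlapped, with CKp25_6wk_3940 far below the other 2 at 6 weeks. Ifit1 was at 4.36, 2.66 and 1.02 CPM in CK and 120.0, 88.1 and 112 CPM in CKp25 at 2 weeks, and at 2.24, 1.42 and 2.44 against 72.4, 43.3 and 74.7 CPM at 6 weeks. For Ifit1 all 3 CKp25 libraries at 6 weeks were below all 3 at 2 weeks. Ifit2 had the smallest fold changes of the 3. At 2 weeks it was at 5.87, 6.96 and 4.06 CPM in CK and 71.3, 67.5 and 79.6 CPM in CKp25 (log2 fold change 3.69 ± 0.21). At 6 weeks it was at 7.73, 10.9 and 11.5 CPM in CK and 63.2, 38.3 and 41.1 CPM in CKp25 (2.22 ± 0.20).

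The OAS genes encode sensors of double-stranded RNA. Oas1a, Oas2 and Oas3 make the messenger that activates RNase L, and Oasl1 and Oasl2 are related proteins. Oas1a, Oas2, Oas3 and Oasl1 were under 1 CPM in every CK library. Oasl2 (ENSMUSG00000029561) was at 2.18, 2.45 and 1.02 CPM in CK and 102, 81.8 and 109 CPM in CKp25 at 2 weeks. At 6 weeks Oasl2 was at 1.83, 3.84 and 2.27 CPM in CK and 74.8, 48.1 and 81.5 CPM in CKp25, with log2 fold changes of 5.67 ± 0.27 and 4.68 ± 0.27. Oas3 had 1 count over the 3 CK libraries at 2 weeks and 0 at 6 weeks. Its CKp25 levels were 5.39, 4.27 and 10.1 CPM at 2 weeks and 5.20, 3.38 and 3.82 CPM at 6 weeks. The ratio of its counts at 2 weeks was 105, with a 95% counting interval of 18.5 to 4171, and at 6 weeks Oas3 was at least 21.1-fold higher, from a floor of 3 counts over the CK group. The fitted log2 values of 6.27 and 7.51 for Oas3 depend on the prior count and are no measure of order. Oas1a, with 3 CK counts at 2 weeks, had a ratio of 68.7 (23.2 to 335), and Oasl1, with 3 CK counts at 6 weeks, had 26.7 (8.85 to 132). Oas2 was at 13.2 ± 4.37 CPM (SD, n = 3) in CKp25 at 2 weeks and 0.235 ± 0.253 in CK. Intervals and floors cover counting error only.

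Isg15 is a ubiquitin-like protein that is attached to other proteins, Herc6 is the ligase that attaches it in mice, and Usp18 removes it and also blocks signalling at Ifnar2. Herc6 (ENSMUSG00000029798) had the most counts. It stood at 6.71, 6.34 and 7.11 CPM in CK and 43.9, 36.9 and 45.1 CPM in CKp25 at 2 weeks, and at 6.10, 5.46 and 8.90 against 45.4, 29.5 and 36.0 CPM at 6 weeks. Its log2 fold changes were 2.64 ± 0.18 and 2.41 ± 0.19, where Isg15 had 5.29 ± 0.49 and 4.04 ± 0.56. Isg15 was at 0.335, 0.818 and 0 CPM in CK and 14.4, 12.2 and 20.4 CPM in CKp25 at 2 weeks. At 6 weeks it was at 0, 0.607 and 0.524 CPM in CK and 8.60, 4.35 and 7.27 CPM in CKp25, and the CKp25 libraries of the 2 times did not overlap. Usp18 rose from 0.596 ± 0.587 to 30.1 ± 8.62 CPM at 2 weeks and from 0.909 ± 0.271 to 20.6 ± 4.62 CPM at 6 weeks.

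Mx1 and Mx2 are dynamin-like proteins that block viral replication. Mx1 had a log2 fold change of 6.33 ± 0.44 at 2 weeks, on 4 CK counts in all, with 0, 0.205 and 0.610 CPM in CK and 23.6, 17.1 and 26 CPM in CKp25. At 6 weeks it was at 0, 0.405 and 0 CPM in CK and 13.6, 9.82 and 11.5 CPM in CKp25, a ratio of counts of 89.5 (24.5 to 745). Mx2 rose from 0.428 ± 0.234 to 14.8 ± 3.36 CPM at 2 weeks. Rsad2, or viperin, makes a nucleotide that ends viral RNA chains, and Cmpk2, its neighbour in RefSeq's gene order, is a mitochondrial nucleotide kinase. Rsad2 was at 1.51, 1.43 and 0.406 CPM in CK and 38.5, 27.6 and 49.7 CPM in CKp25 at 2 weeks, and at 1.83, 1.42 and 1.22 against 24, 12.4 and 20.2 CPM at 6 weeks. Cmpk2 (ENSMUSG00000020638) had the smallest rise of the 35 genes at both times. It was at 14.8, 17.6 and 23.6 CPM in CK and 48.2, 41.4 and 46.7 CPM in CKp25 at 2 weeks, and at 15.9, 16.4 and 14.5 against 40.8, 35.4 and 46.2 CPM at 6 weeks. Its log2 fold changes were 1.30 ± 0.14 and 1.39 ± 0.15, where Rsad2 had 5.06 ± 0.35 and 3.64 ± 0.37. The CKp25 libraries of the 2 times did not overlap for Rsad2 and overlapped for Cmpk2. Samd9l, an antiviral factor that limits translation, rose from 5.40 ± 2.33 to 51.6 ± 8.38 CPM at 2 weeks and from 6.70 ± 0.821 to 37.3 ± 5.40 CPM at 6 weeks.

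Bst2, or tetherin, holds budding virus at the cell surface, and Ifitm3 hinders fusion of virus with endosomal membranes. Bst2 (ENSMUSG00000046718) was at 1.17, 1.64 and 1.42 CPM in CK and 23.3, 37.5 and 40.5 CPM in CKp25 at 2 weeks. At 6 weeks it was at 1.22, 0.809 and 1.75 CPM in CK and 26.6, 15.9 and 17.1 CPM in CKp25. Library CKp25_2wk_4518 was the lowest of its group for Bst2 and overlapped the 6-week range. Ifitm3 rose from 1.49 ± 0.500 to 21.4 ± 2.25 CPM at 2 weeks and from 1.53 ± 0.274 to 17.3 ± 5.70 CPM at 6 weeks.

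Parp9, Parp12 and Parp14 are members of the ADP-ribosyltransferase family, and Dtx3l is the ubiquitin ligase that pairs with Parp9. The median log2 fold change of these 4 genes was 2.68 at 2 weeks and 2.34 at 6 weeks, under the medians of the 35. Parp14 (ENSMUSG00000034422) was at 6.71, 4.09 and 2.64 CPM in CK and 54.9, 43.0 and 65.7 CPM in CKp25 at 2 weeks, and at 3.66, 4.65 and 5.41 against 49.8, 33.7 and 45.6 CPM at 6 weeks. Parp12 was at 8.72, 8.80 and 9.14 CPM in CK and 42.4, 40.6 and 53.3 CPM in CKp25 at 2 weeks. At 6 weeks Parp12 was at 8.54, 12.7 and 11 CPM in CK and 44.6, 31.7 and 39.1 CPM in CKp25, and its log2 fold changes were 2.35 ± 0.16 and 1.83 ± 0.16. Dtx3l was at 9.05, 8.80 and 6.10 CPM in CK and 42.9, 37.3 and 43.1 CPM in CKp25 at 2 weeks, and at 7.12, 8.09 and 6.98 against 28.6, 24.6 and 34.4 CPM at 6 weeks. Parp9 overlaps Dtx3l in RefSeq and had 3.01 ± 0.20 at 2 weeks against 2.35 ± 0.16 for Dtx3l, on the log2 scale.

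Sp100 is a component of nuclear bodies, Trim21 an intracellular antibody receptor, and Trim30a and Ifi206 are interferon-induced members of the TRIM and the PYHIN families. Trim30a (ENSMUSG00000030921) was at 11.1, 11 and 10.8 CPM in CK and 66.2, 52.9 and 69.6 CPM in CKp25 at 2 weeks, and at 9.76, 12.9 and 15.9 against 72.0, 37.5 and 55.1 CPM at 6 weeks. Ifi206 had 1 count over the CK libraries at 2 weeks and 0 at 6 weeks. In CKp25 it was at 5.83, 3.34 and 8.66 CPM at 2 weeks and 4.40, 3.22 and 6.00 CPM at 6 weeks. The ratio of its counts was 95.3 (16.8 to 3798) at 2 weeks, and it was at least 23.3-fold higher at 6 weeks. Sp100 rose from 2.30 ± 0.251 to 13.6 ± 1.85 CPM at 2 weeks and from 3.04 ± 0.537 to 14.6 ± 3.55 CPM at 6 weeks, and Trim21 rose from 1.43 ± 0.414 to 16.1 ± 1.39 CPM and from 2.12 ± 1.04 to 13.4 ± 4.21 CPM.

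The Schlafen genes Slfn2, Slfn5 and Slfn8 encode regulators of immune cell growth and of translation. Slfn5 (ENSMUSG00000054404) had the second smallest rise at 2 weeks, at 8.05, 5.11 and 5.69 CPM in CK and 26.5, 26.5 and 30.9 CPM in CKp25. At 6 weeks Slfn5 was at 4.88, 6.47 and 6.81 CPM in CK and 29.6, 17.6 and 26.7 CPM in CKp25, and its log2 fold changes were 2.13 ± 0.20 and 2.00 ± 0.21. Slfn8 varied most between libraries, with a coefficient of variation fitted by edgeR of 0.358 against a median of 0.155 over the 35 genes and 0.0909 over all genes tested. Slfn8 was at 32.1, 13.5 and 19.3 CPM in CKp25 at 2 weeks and at 19.8, 5.15 and 21.5 CPM at 6 weeks, and its CK mean was 0.824 ± 0.207 and 0.979 ± 0.822 CPM. Slfn2 rose from 0.803 ± 0.559 to 11.8 ± 1.54 CPM at 2 weeks.

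Of the remaining 6 genes, Lgals3bp (ENSMUSG00000033880), a secreted glycoprotein that binds galectins, had the most counts of the 35. It was at 11.9, 7.57 and 8.74 CPM in CK and 181, 159.8 and 166 CPM in CKp25 at 2 weeks, and at 6.92, 8.70 and 12.9 against 189, 117 and 163 CPM at 6 weeks. Its log2 fold changes were 4.15 ± 0.20 and 4.01 ± 0.20. Ifi27l2a, which encodes a small hydrophobic protein, had 2 counts over the CK libraries at 6 weeks, at 0.407, 0 and 0 CPM in CK and 14.8, 9.98 and 11.6 CPM in CKp25, a ratio of counts of 93.3 (25.5 to 776). At 2 weeks Ifi27l2a was at 0.168, 0.409 and 0.203 CPM in CK and 13.0, 16.1 and 16.3 CPM in CKp25. Ifi44 was at 0.838, 0.409 and 0.406 CPM in CK and 38.9, 21.3 and 30.6 CPM in CKp25 at 2 weeks, and at 0.407, 0.809 and 0.349 against 23.0, 14.5 and 19.1 CPM at 6 weeks. Rtp4, a chaperone of membrane receptors, rose by a log2 fold change of 4.39 ± 0.29 at 2 weeks and 4.15 ± 0.30 at 6 weeks. Xaf1, which promotes apoptosis, had 3.23 ± 0.23 and 2.70 ± 0.23, and Ifi35 had 2.90 ± 0.27 and 2.13 ± 0.27.

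The counts leave out reads with several alignments, so members with close relatives (the Ifit, Oas, Slfn, Trim30 and Ifi206 families) may be undercounted. RefSeq places 11 of the 35 genes over another gene, among them Ifit1 with Ifit1bl1, Ifi27l2a with Ifi27 and Slfn5 with Slfn5os, and whether the counting used strand is not stated in the labels or headers.

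The next comparison asked whether the members' level within CKp25 differed between the times. Of the 35 genes, 9 were lower at 6 than at 2 weeks by edgeR's test, where 5.53% of all genes tested were lower. The 9 were Rsad2, Ifit1, Mx1, Isg15, Ifit2, Dtx3l, Bst2, Ifi44 and Oasl2. Isg15 fell the most, by 1.24 ± 0.30 on the log2 scale (adjusted p = 0.0136), and Rsad2, with the smallest adjusted p (0.00493), fell by 1.05 ± 0.22. Mx1 fell by 0.95 ± 0.23, Bst2 by 0.77 ± 0.20, Ifit1 by 0.76 ± 0.18, Ifi44 by 0.70 ± 0.20, Ifit2 by 0.62 ± 0.16, Oasl2 by 0.52 ± 0.16 and Dtx3l by 0.50 ± 0.13. Over the 35 genes the median log2 difference was -0.41, against 0.00 over all genes tested, and 34 had a value below 0. The exception was Sp100, at 0.10 ± 0.18. The share of all genes tested below 0 was not computed, and the 35 genes share all libraries and are not independent. The 6-week mean was 42.9% of the 2-week mean for Isg15, 108% for Sp100 and 75.9% at the median. In 10 of the 35 genes every CKp25 library at 6 weeks was below every one at 2 weeks, against 14.4% of all genes tested. These were Ifit1, Ifit2, Oasl1, Oasl2, Isg15, Mx1, Mx2, Rsad2, Samd9l and Dtx3l.

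**Figure D3:**
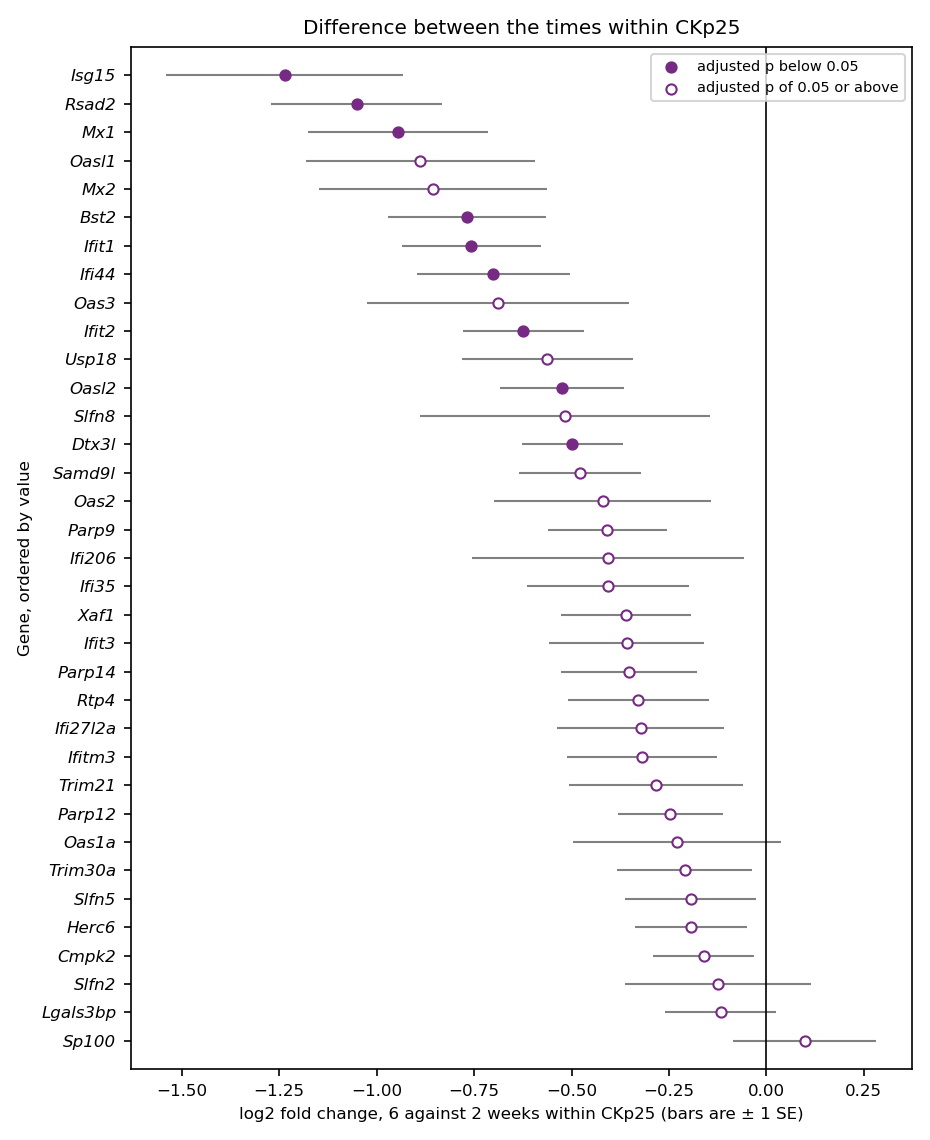
log2 fold change of 6 against 2 weeks within CKp25 for each gene, with bars of 1 SE; filled points passed an adjusted p of 0.05. The 9 filled points lie between -1.24 (Isg15) and -0.50 (Dtx3l), and Sp100 alone lies above 0.

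Single libraries set much of this count: it was 2 (Ifit1 and Rsad2) without CKp25_2wk_4894, and 5 (Ifit1, Ifit2, Isg15, Mx1 and Rsad2) without CKp25_6wk_3940. The median log2 difference of the 35 genes was -0.27 without CKp25_2wk_4894. It was -0.22 without CKp25_6wk_3940 and -0.53 without CKp25_2wk_4890, the ends of its range over fits that left out 1 library. The count of members called was 17 with choroid plexus markers as a covariate and 17 with no filter on low counts. Rsad2 was called in all 21 fits made, and Ifit1, Isg15 and Mx1 in 20 of them. Within CK none of the 35 genes was called between the times (0 by edgeR, DESeq2 and limma-voom). Neither was any of the 14457 genes tested (0.00%). Ifit2 was the 1 member at an unadjusted p under 0.05 within CK by edgeR, with a log2 difference of 0.84 ± 0.27. The median log2 difference in CK was 0.02. With no filter on low counts 130 genes were called within CK, 1 of them a member, and without CK_2wk_4520 and CKp25_2wk_4518 together 26 genes were called, none of them a member.

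A further test asked whether the genotype effect itself differed between the times. It was smaller at 6 weeks for Ifit2, by 1.46 ± 0.31 on the log2 scale (edgeR, adjusted p = 0.0446), where 0.180% of all genes tested had a lower effect, and it passed for no other member. For 31 of the 35 genes the value was below 0, with a median of -0.53, against -0.01 over all genes tested. Of the 35, 3 passed an unadjusted p of 0.05 (edgeR). The shares of all genes for these counts were not computed, and the 35 genes share all libraries and are not independent. Ifit2 was at 10.1 ± 2.04 CPM in CK at 6 weeks and 5.63 ± 1.46 at 2 weeks (SD, n = 3), while its CKp25 mean went from 72.8 ± 6.19 to 47.5 ± 13.6 CPM. The call was lost in 9 of the 12 fits that left out 1 library (CK_2wk_4520, CK_2wk_4891, CK_2wk_4893, CKp25_2wk_4518, CKp25_2wk_4890, CKp25_2wk_4894, CK_6wk_3938, CK_6wk_4009 or CKp25_6wk_4008), at adjusted p of 0.0545 to 0.11 and log2 values of -1.63 to -1.29.

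Within each CKp25 group most members put the same library highest and the same library lowest. At 6 weeks library CKp25_6wk_3940 was the lowest of its group for all 35 genes, where it was the lowest for 34.4% of all genes tested, and CKp25_6wk_3937 was the highest for 27, against 35.1% of all genes tested. At 2 weeks library CKp25_2wk_4894 was the highest for 28 genes and CKp25_2wk_4890 the lowest for 28, against 32.9% and 32.4% of all genes tested. Within CK, library CK_2wk_4520 was the highest for 18 genes and the lowest for 9, and CK_2wk_4893 was the lowest for 19. The 3 CK libraries at 6 weeks were the highest for 8, 13 and 14 genes and the lowest for 12, 12 and 11. The summed level of the 35 genes was 1405, 1191 and 1529.7 CPM in CKp25 at 2 weeks and 1259.7, 767 and 1094 CPM at 6 weeks, against 104 to 127 CPM and 113 to 138 CPM in CK. Microglia markers summed to 917, 1077 and 1206 CPM in CKp25 at 2 weeks and 1442, 1106 and 1145 CPM at 6 weeks, and to 245 to 267 and 231 to 265 CPM in CK. Library CKp25_6wk_3940 thus had the lowest sum of both sets in its group, and CKp25_2wk_4894 the highest of both at 2 weeks. The lowest sum at 2 weeks lay in CKp25_2wk_4890 for the members but in CKp25_2wk_4518 for the microglia markers. By the mean log2(CPM + 1) of microglia markers, CKp25_6wk_3940 was not the lowest of its group, at 6.247 against 6.243 in CKp25_6wk_4008. Per 100 CPM of microglia markers, the members had 153, 111 and 127 CPM in CKp25 at 2 weeks and 87.4, 69.3 and 95.5 CPM at 6 weeks, against 41.5 to 51.9 and 48.9 to 56.1 CPM in CK. No CKp25 library overlapped CK in this ratio, and the 2 times did not overlap within CKp25. Between the times within CKp25, 3 of 10 microglia markers were higher and 1 lower, with a median log2 difference of 0.14. Among all 14457 genes tested, 885 were higher and 800 lower at 6 weeks. Of 7 excitatory neuron markers 4 were lower at 6 weeks (median -0.41, where the members also had -0.41). Oligodendrocyte markers were higher in 5 of 5 cases (median 0.68), astrocyte markers in 4 of 6 (0.48), endothelial markers in 3 of 5 (0.42) and border macrophage markers in 2 of 3 (1.20). No choroid plexus marker of 7 passed (1.07). The part of these cells in the members' difference between the times was not tested.

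**Figure D4:**
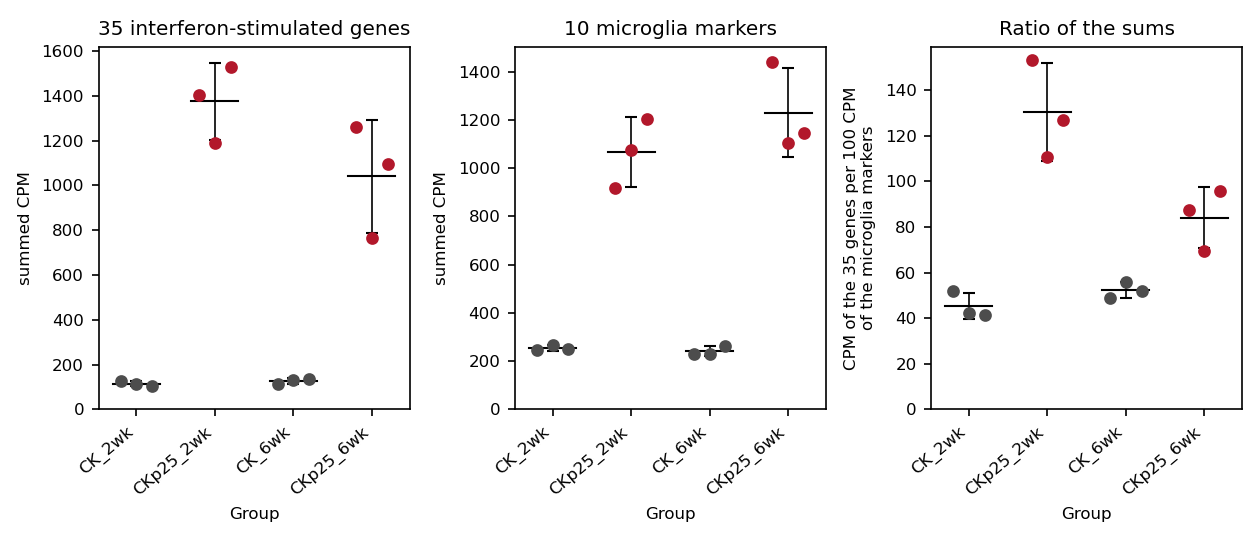
Summed CPM of the 35 genes (left), of 10 microglia markers (middle) and their ratio (right) in each library, with group means and SD (n = 3). Between 2 and 6 weeks in CKp25 the mean of the 35 genes went from 1375 to 1040.3 CPM and that of the microglia markers from 1067 to 1231 CPM.

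Markers of other cells moved in part with the genotype. Astrocyte markers were higher in 4 of 6 cases at 2 weeks and 6 of 6 at 6 weeks, at 7068 to 7444 and 9570 to 12011 CPM in CKp25 against 5108 to 5552 and 5256 to 5824 CPM in CK. Of excitatory neuron markers 6 of 7 were lower at 2 weeks and 7 of 7 at 6 weeks, and library CKp25_6wk_3940 had the highest sum of its group (2576 CPM, against 1896 and 2299). Oligodendrocyte and endothelial markers had median log2 fold changes of 0.00 and 0.04 at 2 weeks, and at 6 weeks 5 of 5 of each were higher, with sums of 3736 to 4576 and 156 to 191 CPM in CKp25 at 6 weeks against 2518 to 3238 and 106 to 119 CPM in CK. Border macrophage markers had a median of 0.17 at 2 weeks, and at 6 weeks 3 of 3 tested were higher, at 14.0 to 27.4 CPM against 5.26 to 9.15 CPM in CK. Markers of T cells, B cells, monocytes and neutrophils did not pass the filter on low counts. Those of T cells summed to 0.185 to 0.583 CPM in CKp25 at 2 weeks and 0.727 to 2.80 CPM at 6 weeks, against at most 0.524 CPM in CK. Those of monocytes and neutrophils summed to 0.729 to 1.80 and 1.45 to 3.40 CPM, against at most 1.02 CPM in CK, and those of B cells to at most 1.47 CPM in any library. At 6 weeks 1 of 6 T cell markers (Cd3e) had no counts in CKp25, against 4 in CK. Of 6 monocyte and neutrophil markers, 3 had none in CKp25 (S100a8, S100a9 and Ly6g) and 3 had none in CK. At 2 weeks 3 T cell markers had no counts in CKp25 and 2 in CK, and 1 and 3 monocyte and neutrophil markers had none. Ly6g was at 0 in all 12 libraries. Of the 3 plasmacytoid dendritic cell markers, Ly6d was also at 0 throughout. Siglech, which microglia express too, rose from 9.48 ± 1.46 to 32.2 ± 1.19 CPM at 2 weeks and from 8.19 ± 1.54 to 32.7 ± 2.21 CPM at 6 weeks (log2 1.77 ± 0.14 and 1.98 ± 0.14; edgeR adjusted p = 5.36e-08 and 2.59e-08). The list summed to 499 to 518 CPM in CKp25 and 496 to 615 CPM in CK, nearly all of it Tcf4, which had log2 values of -0.17 at both times and did not pass the test. Choroid plexus markers summed to 16.7 to 2463 CPM, with libraries far apart in all 4 groups and median log2 fold changes of 0.42 and 0.30. The part of these cells in the members' levels was not tested.

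At 2 weeks libraries CK_2wk_4520 and CKp25_2wk_4518 stood apart, with a share of multiply aligned reads of 7.15 and 6.81%, where the other 4 had 12.2 to 14.3%. Between CKp25_2wk_4518 and CK_2wk_4520 the members differed by 1.61 (Slfn5) to 5.01 (Oasl2) in log2(CPM + 1), with a median of 3.05. Within the other 4 libraries the difference of means, CKp25 minus CK, ran from 1.07 (Cmpk2) to 5.28 (Ifit3), with a median of 3.32. The same differences over all genes tested were not computed. The part of the multiply aligned share in the members' rise was not tested. At 6 weeks the CK libraries had 6.86 to 9.52% and the CKp25 libraries 11.5 to 13.9%, and there this share cannot be told apart from genotype.

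Transcripts of interferon sensing and signalling were compared in the same way, and several of them, such as Irf7, Ddx58 and Ifih1, are themselves induced by interferon. Of 38 listed genes 27 were tested, and 17 were higher in CKp25 at 2 weeks and 20 at 6 weeks. Of all genes tested, 11.6% and 18.1% were higher at these times. The lowest log2 values were those of Jak1 at 2 weeks (-0.13) and Ifngr2 at 6 weeks (-0.22). Of 9 interferons listed, 8 were found in the count table (Ifna1 was not), and these gave almost no counts. Other interferon genes were not looked up. Ifnb1 was at 0 in 10 of 12 libraries, with 0.146 and 0.163 CPM in CKp25 libraries CKp25_2wk_4518 and CKp25_2wk_4894. Ifna2 was at 0 in 9 of 12, and Ifna4, Ifng, Ifnk, Ifne, Ifnl2 and Ifnl3 were at 0 in all 12. The levels of these interferons were not detectable at this depth, in counts that leave out reads with several alignments. Of the type I receptor subunits, Ifnar1 was at 47.7 ± 2.71 CPM in CK and 47.3 ± 4.23 in CKp25 at 2 weeks, and at 46.4 ± 3.72 and 54.0 ± 1.49 CPM at 6 weeks (edgeR adjusted p = 0.94 and 0.0731). Ifnar2 rose from 12.8 ± 1.27 to 19.1 ± 3.25 CPM at 2 weeks and from 12.4 ± 2.04 to 22.5 ± 2.42 CPM at 6 weeks. The kinases Jak1, Jak2 and Tyk2 had log2 fold changes of -0.13 to 0.16 over both times.

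Of the 7 listed STAT and IRF factors, which carry the signal to DNA, 6 were higher at each time. Stat2 was at 16.1, 14.7 and 16.3 CPM in CK and 58.4, 50.6 and 61.6 CPM in CKp25 at 2 weeks, and at 16.7, 18.8 and 16.2 against 38.2, 30.4 and 38.7 CPM at 6 weeks. Irf9 rose from 10.8 ± 2.97 to 61.5 ± 2.98 CPM at 2 weeks and from 11.9 ± 1.84 to 51.3 ± 10.3 CPM at 6 weeks. Irf7, which raises interferon output, was at 1.84, 1.23 and 0.610 CPM in CK and 62.1, 54.0 and 62.3 CPM in CKp25 at 2 weeks. At 6 weeks Irf7 was at 1.22, 1.82 and 1.92 CPM in CK and 45, 28 and 37.6 CPM in CKp25. Within CKp25, Stat2 fell by 0.68 ± 0.11 and Irf7 by 0.70 ± 0.14 on the log2 scale between the times (adjusted p by edgeR 0.000736 and 0.00449), and their libraries did not overlap. Irf9 had a log2 difference of -0.27 ± 0.14, and Irf3, the sensor-activated factor that needs no induction, rose by 0.60 ± 0.15. Stat2 also had a smaller genotype effect at 6 weeks, by 0.81 ± 0.17 (edgeR, adjusted p = 0.047). Whether this call depended on single libraries was not examined. Of 10 tested sensors and nucleic acid enzymes, 8 were higher at 2 weeks and 9 at 6 weeks, among them the RNA sensors Ddx58 (log2 fold change 3.31 ± 0.19 and 2.83 ± 0.20) and Ifih1 (3.12 ± 0.25 and 2.55 ± 0.25). Socs1 and Socs3, inhibitors of the receptor kinases, were higher at both times.

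**Figure D5:**
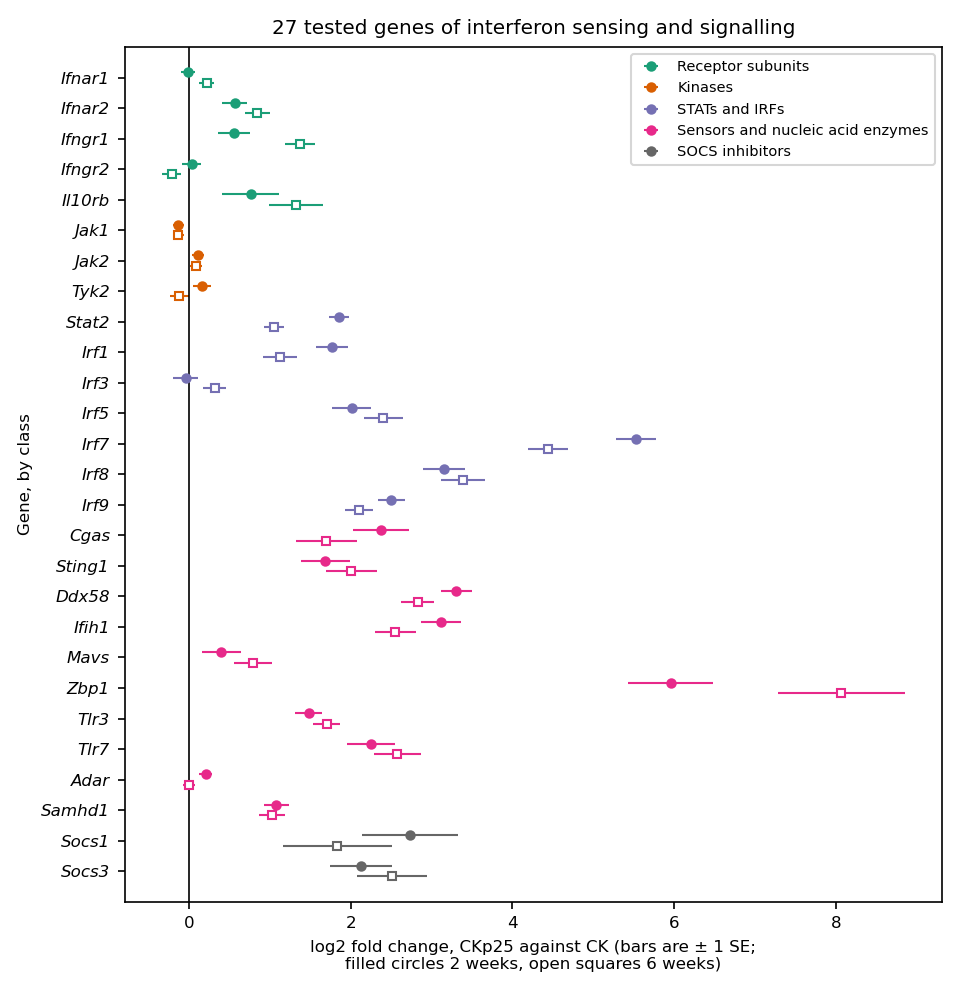
log2 fold change of CKp25 against CK for the 27 tested genes of interferon sensing and signalling, coloured by class, at 2 weeks (filled circles) and 6 weeks (open squares), with bars of 1 SE. The 3 kinases lie at 0.16 or below, while Irf7 lies at 5.53 and 4.44.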

How the data were processed

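RNA libraries of mouse hippocampus were analysed from the deposited table of raw read counts per Ensembl gene, which the authors made with HTSeq 0.6.1 per the submitters' processing notes. Per the labels' protocols, ribosomal RNA was removed and a kit that marks strand was used on total RNA. The table's 5 entries without a gene entered neither the library sizes nor the tests. Symbols came from a supplied table of gene IDs, which named 32919 of 37991 genes (86.6%), and all 12 columns were mapped to a group.

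Counts were fitted in R 4.3.3 with edgeR 4.0.16 (filterByExpr, TMM factors, quasi-likelihood tests, 4 group means over all 12 libraries). Adjusted p-values are Benjamini-Hochberg values over 14457 genes, and 0.05 was the threshold for a call. The script was tested on simulated counts. Alternatives used DESeq2 1.42.0, limma 3.58.1 (voom), other scaling, no filter, fewer libraries, covariates and a block of near library numbers.

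The members and gene lists were chosen with earlier results of these data known. Every library's value is given for the member with the most counts in each role, the 3 highest and 3 lowest fitted fold changes at each time, and up to 8 members called between the times. Promoter sequences are RefSeq's (GRCm38.p6), not those of the files' build. Peaks of the histone marks were not used here, and a planned look at protein paralogs was not made. A gene of the pathway list fixed at the start is not reported here and was left out of its counts.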

Additional observations from a re-analysis of the deposited data

Results flagged for a closer look

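Ifit2 was the 1 gene of the 35 that passed a test of the difference in genotype effect between the times (-1.46 on the log2 scale, 6 minus 2 weeks, edgeR's quasi-likelihood test). Its fold change remained above 0 at both times, and the call depended on single libraries. The CK mean of Ifit2 was higher at 6 than at 2 weeks (10.1 against 5.63 CPM), and its CKp25 mean was lower (47.5 against 72.8 CPM).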

How the results depend on the processing

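In every fit made, all 35 genes were higher in CKp25 at 2 and at 6 weeks. The count of members lower at 6 than at 2 weeks within CKp25, 9 in the fit described, was 17 without a filter on low counts, 17 with choroid plexus markers as a covariate, 12 by limma-voom, 7 by DESeq2 and 2 to 11 when each library was left out in turn. The count for the difference in genotype effect, 1 as described, was 2 without the filter, 0 by limma-voom, 0 without both CK_2wk_4520 and CKp25_2wk_4518, 0 with the share of reads aligned to several places as a covariate and 0 to 1 when each library was left out. Within CK the count was 1 without the filter and 0 in the other fits, of which the one on the 6 CK libraries alone tested 17 members. With a spacing of 3 bases the motif was found in 6 members, against 13. Of 700 member values recomputed for 6 against 2 weeks within CKp25, 638 kept their direction and side of the threshold, 30 passed it newly, 29 no longer passed it and 3 changed sign. With each library left out in turn, those 3 ran from -0.47 to 0.10 (Oas1a, above 0 without CKp25_2wk_4894), from -0.0626 to 0.26 (Sp100, below 0 without CKp25_6wk_3937) and from -0.27 to 0.0354 (Lgals3bp, above 0 without CKp25_6wk_3940). The cause was not tested. Depth limits the fold changes of members near 0 in CK: 11 had 10 or fewer counts over the CK libraries at 2 weeks and 10 had so at 6 weeks. The groups share no library numbers, so numbers pair no libraries across groups. A replicate block of near library numbers (4 blocks, chosen after seeing the data; the labels do not say what a number stands for) called 35, 35 and 1 members for the 2 genotype comparisons and their difference, where it called 305 genes in all against 80 without it. Blocks lie within a time, so 6 against 2 weeks could not be fitted with them.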
